A study of Mus musculus with 10 samples.

Results

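The vitamin D receptor, its RXR partners, the enzymes that make and break down the hormone, and classical target genes were followed in MC903-treated mouse ear skin. The set holds 10 genes, matched by symbol to the Ensembl identifiers of the count files, of 41388 features in all. It consists of the receptor Vdr, its partners Rxra and Rxrb, the P450 enzymes Cyp24a1, Cyp27b1 and Cyp2r1, and the targets S100g, Trpv6, Cd14 and Spp1. MC903 (calcipotriol) is a synthetic vitamin D analogue, so every library comes from skin under a ligand of this receptor, and no untreated skin was analysed here.

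Libraries were made from whole ear skin, 1 for each of 10 C57Bl/6 mice. The 4 Littermate mice carry the genotype label WT. The 6 Experimental mice are NaV1.8+ Jak1F/F by their genotype label and NaV1.8+ Il4raF/F by the series text, so which floxed gene they carry is not settled here. NaV1.8 marks sensory neurons that carry pain and itch, whose cell bodies lie in ganglia outside the ear. No Cre is named in the labels. The series text gives topical MC903 at 1 nM daily for 12 days in the phrase on the Littermates, and for the Experimental mice it names MC903 without a dose. The labels state neither age nor sex of the mice. Libraries held between 11520348 and 41935183 counts. The keratinocyte markers Krt5, Krt14, Krt1, Krt10, Trp63 and Ivl were all present and summed to between 24540.1 and 32322.9 CPM (counts scaled to a common library size with TMM factors).

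Vitamin D is hydroxylated first at carbon 25, for which CYP2R1 is the main enzyme, and then by CYP27B1 to the active hormone calcitriol. Calcitriol or an analogue binds the vitamin D receptor, which pairs with a retinoid X receptor (RXR) and sits on DNA at direct repeats of a hexamer spaced by 3 bases, called DR3 elements. CYP24A1 inactivates the hormone and its analogues and is the best known target of the receptor, so that induction of its gene is a read-out of receptor activity. Keratinocytes are unusual in holding both the receptor and the hydroxylases, and topical analogues act on them directly.

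The promoter sequences of 3 target genes are given first, because these are the genes through which a receptor ligand is classically read. RefSeq windows (build GRCm38.p6, the assembly of mm10) of 250 bases before and 50 bases after the start site existed for 8 of the 10 genes, not for Cyp24a1 or Cd14. The bases before the start site are shown 5′ to 3′ on the strand of the gene. Capitals mark the closest match to a direct repeat of the hexamer AGGTCA with 3 bases between, searched on both strands. Where matches were equally close, a single match was marked. Each hexamer could also read AGTTCA, and either spelling could begin with G instead of A.
Trpv6, chr6:41636406-41636655, minus strand: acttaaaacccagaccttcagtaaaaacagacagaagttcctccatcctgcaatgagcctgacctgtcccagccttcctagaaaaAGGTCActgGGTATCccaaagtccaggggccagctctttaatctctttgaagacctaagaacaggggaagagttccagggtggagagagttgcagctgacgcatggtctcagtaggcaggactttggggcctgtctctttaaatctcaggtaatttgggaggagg
S100g, chrX:162964600-162964849, minus strand: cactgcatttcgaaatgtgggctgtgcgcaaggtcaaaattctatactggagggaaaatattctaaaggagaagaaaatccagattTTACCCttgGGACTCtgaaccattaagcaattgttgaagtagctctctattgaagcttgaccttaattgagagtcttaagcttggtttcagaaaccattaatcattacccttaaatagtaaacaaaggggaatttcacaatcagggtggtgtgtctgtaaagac
Spp1, chr5:104434861-104435110, plus strand: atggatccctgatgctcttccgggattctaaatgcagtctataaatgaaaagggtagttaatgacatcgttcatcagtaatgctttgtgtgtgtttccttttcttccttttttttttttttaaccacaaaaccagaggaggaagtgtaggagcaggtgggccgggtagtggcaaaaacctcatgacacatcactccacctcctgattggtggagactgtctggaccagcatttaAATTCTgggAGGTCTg

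Each of these 3 windows held a match with 3 mismatches over the 12 hexamer positions, and 77.1% of all 32851 windows held one as good. In Trpv6 the first hexamer of the marked match was complete, AGGTCActgGGTATC, beginning 165 bases before the start site. A match on the opposite strand was equally close in this window, and likewise in the window of Spp1 shown above. In S100g the match lay on the opposite strand and began 164 bases before the start. The closest match among the 11 windows of the set was that of Cyp2r1, TAACCCaaaGGACCC on the opposite strand, with 2 mismatches, a quality that 19% of all windows reached. Both windows of Rxrb, the first of Rxra and the second of Spp1 held only matches with 4 mismatches, and 99.9% of all windows held one as good or better. An exact repeat occurred in 0.0396% of all windows and in none of these 11. Elements farther from the start site were not searched.

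Levels were compared per kilobase of exonic length (RPKM from the TMM-scaled counts). Cyp24a1 stood far above the rest, at 552 ± 95.4 RPKM (SD, n = 10), rank 50 of 16830 tested genes, and took 0.196% of all counts. Rxra followed at 52.2 ± 6.47 RPKM (SD, n = 10), and the range of neither gene over the libraries overlapped that of the next in the order. Vdr itself was at 10.3 ± 1.77 RPKM (SD, n = 10), above 66.7% of tested genes. The ratio of Cyp24a1 to Vdr had a median of 54.7 and ran from 32.5 to 79.7.

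**Figure D1:**
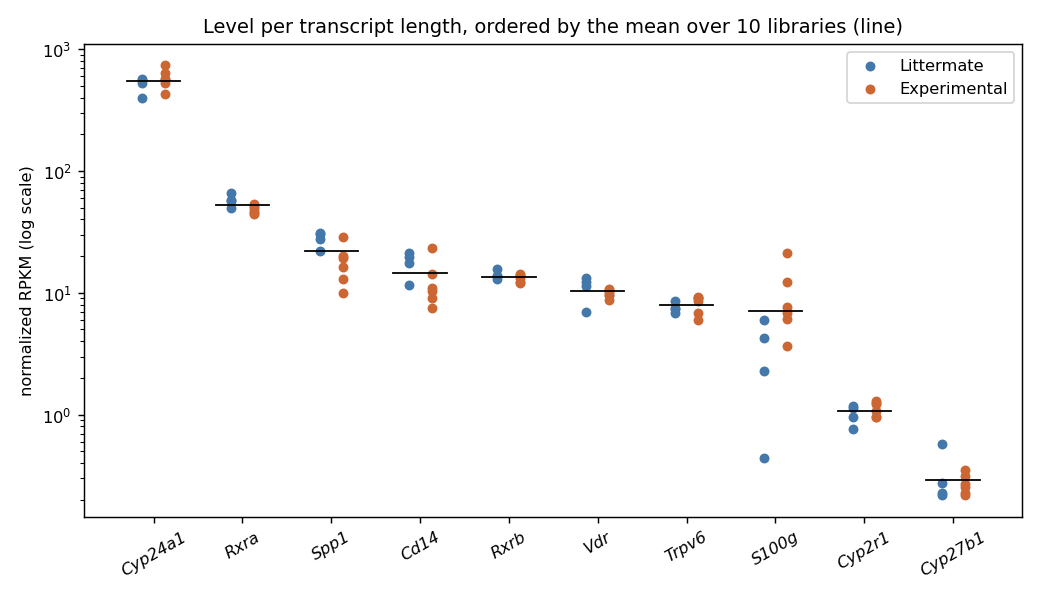
Normalized RPKM on a log axis for the 10 genes, ordered by the mean over 10 libraries (line), with 1 point per library in blue for Littermate and orange for Experimental. Cyp24a1, at 552 RPKM on average, lies apart at the top, and Cyp2r1 and Cyp27b1 have the lowest means, with 1 library of S100g (Littermate 3) as low.

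In the middle of the order the genes ran into each other. Spp1 (21.9 ± 7.42 RPKM, SD, n = 10) exceeded Cd14 (14.6 ± 5.5 RPKM, SD, n = 10) in each of 10 libraries although their ranges overlapped. Cd14 exceeded Rxrb (13.6 ± 1.02 RPKM, SD, n = 10) in 5 of 10 libraries, so these neighbours did not differ beyond their spread. Rxrb exceeded Vdr in 9 of 10 libraries and Vdr exceeded Trpv6 (7.89 ± 1.16 RPKM, SD, n = 10) in 9 of 10. Trpv6 exceeded S100g (7.05 ± 5.94 RPKM, SD, n = 10) in 7 of 10 libraries. At the bottom, the activating enzymes Cyp2r1 and Cyp27b1 were at 1.08 ± 0.165 and 0.293 ± 0.108 RPKM (SD, n = 10), above 16.5% and 3.01% of tested genes. The inactivating enzyme thus exceeded the activating one by a wide margin, with a median ratio of Cyp24a1 to Cyp27b1 of 1984 and a range from 921.9 to 2950, the denominator resting on 8 to 38 counts per library.

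Between the groups, none of the 9 members tested passed at an adjusted p of 0.05 (edgeR quasi-likelihood test, Benjamini-Hochberg over 16830 genes). Among all tested genes 3 passed (0.0178%), 1 higher (0.00594%) and 2 lower (0.0119%) in Experimental skin. At an unadjusted p under 0.05 there were 3 members, S100g higher and Rxra and Spp1 lower, against 11.8% of all genes (3.65% higher and 8.1% lower). For no member did the libraries of the groups lie fully apart, as they did for 0.761% of all genes on the higher and 1.35% on the lower side. The median log2 fold change, Experimental minus Littermate, was -0.08 over the 9 members and -0.00126 over all tested genes. Since this is RNA of whole skin, fewer cells of a type and less RNA per cell cannot be told apart.

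**Figure D2:**
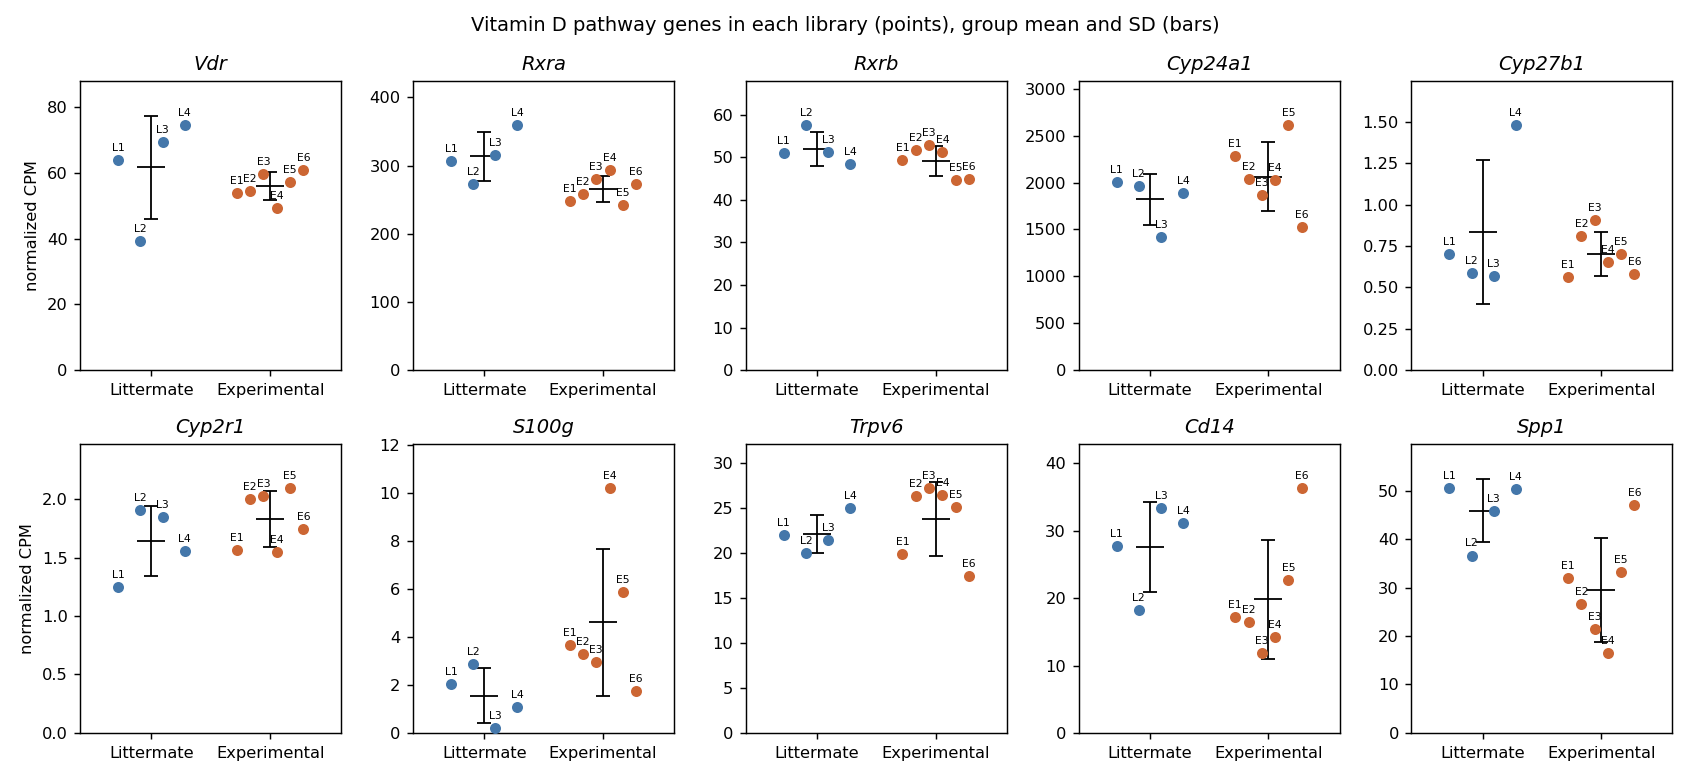
Normalized CPM of each of the 10 genes in every library, labelled L1 to L4 for Littermate and E1 to E6 for Experimental, with the group mean and SD. Points of both groups share a range in every panel; Vdr is lowest in L2, and Cd14 and Spp1 are high in E6 and low in E3 and E4.

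The receptor Vdr (ENSMUSG00000022479, mm10 chromosome 15, 97854425 to 97910630, minus strand) had 63.9, 39.2, 69.2 and 74.5 normalized CPM in Littermates 1 to 4. In Experimental skin its lowest, median and highest values were 49.3, 55.9 and 60.7 CPM. Littermate 2 was the lowest of all 10 libraries, while the other 3 Littermates lay above all Experimental mice, so that the groups overlapped only through that library. The means were 61.7 ± 15.6 CPM (SD, n = 4) and 55.9 ± 4.22 CPM (SD, n = 6). The estimated log2 fold change, -0.14, carried an SE of 0.14 and a 95% interval of -0.44 to 0.16 (edgeR, adjusted p = 0.74). Without Littermate 2 it was -0.31 (edgeR, adjusted p = 0.0652), and without Littermate 4 it was -0.03 (edgeR, adjusted p = 0.985).

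Rxra (ENSMUSG00000015846, chromosome 2, 27676440 to 27762957, plus strand) encodes the main RXR of the epidermis. It had 307, 273, 315 and 359 CPM in the Littermates and a lowest, median and highest value of 243, 265 and 294 CPM in Experimental skin. Of the 6 Experimental libraries, 4 lay below all Littermates. Its log2 fold change, -0.24, had a 95% interval of -0.42 to -0.06 (edgeR, unadjusted p = 0.0128, adjusted p = 0.287). Transcripts rich in GC stood lower in Experimental libraries across all tested genes (r = -0.301 between log2 fold change and GC content over genes, which are not independent replicates). Rxra has a GC content of 57% against a median of 49.7%, and a fit corrected for GC, added once the data had been seen, put it at -0.14 (edgeR, adjusted p = 0.541).

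Rxrb (ENSMUSG00000039656, chromosome 17, 34031812 to 34038393, plus strand), the ubiquitous second RXR, varied least of the set, with a coefficient of variation of 7.51% over 10 libraries. Its Littermate values were 50.9, 57.5, 51.1 and 48.3 CPM, and its Experimental values ran from 44.7 over a median of 50.3 to 52.9 CPM. On the log2 scale the groups differed by -0.08 (95% interval -0.24 to 0.08, edgeR, adjusted p = 0.724), a value that turned to 0.08 with GC correction. Per length, Rxra supplied 78.5% ± 2.93 (SD, n = 4) of RXR transcripts in Littermates and 76.9% ± 1.35 (SD, n = 6) in Experimental skin. Rxrb supplied 19.4% ± 2.92 (SD, n = 4) and 21% ± 1.2 (SD, n = 6), and Rxrg, the form of muscle and nervous tissue, 2.14% ± 0.562 (SD, n = 4) and 2.09% ± 0.364 (SD, n = 6).

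Cyp24a1 (ENSMUSG00000038567, chromosome 2, 170482708 to 170497145, minus strand) encodes the 24-hydroxylase that inactivates vitamin D. Its Littermate values were 2010.4, 1968, 1417 and 1888 CPM, and its Experimental values ran from 1531 over a median of 2035 to 2612 CPM. Littermate 3 and Experimental 6 were the lowest libraries and Experimental 5 the highest, and 4 of 6 Experimental libraries exceeded all Littermates. The means were 1821 ± 274 CPM (SD, n = 4) and 2062 ± 367 CPM (SD, n = 6). As a fold this was 1.13 with a 95% interval of 0.92 to 1.39, or 0.18 on the log2 scale with an SE of 0.14 (edgeR, adjusted p = 0.656). Cyp24a1 shares 83 of its 3560 exonic bases with Pfdn4 on the opposite strand, and without strand marking reads there cannot be assigned. Pfdn4 had 1667 counts over all libraries together, against 372392 for Cyp24a1.

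The 5 genes most like Cyp24a1 across the 10 libraries, of 14221 ranked by Pearson r of log2 CPM, were Bdh2 (r = 0.947), Ccdc80 (0.904), Rffl (0.895), Supt7l (0.892) and Prtg (0.891). With values centred on their group means these r lay between 0.887 and 0.976. Between the groups none of the 5 passed (edgeR, adjusted p from 0.463 to 0.963). They were chosen as the highest of many and are given as a description.

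Of the activating enzymes, Cyp2r1 (ENSMUSG00000030670, chromosome 7, 114550166 to 114562972, minus strand), the main hepatic 25-hydroxylase, had 1.25, 1.91, 1.85 and 1.56 CPM in Littermates. Its Experimental values had a low of 1.55, a median of 1.87 and a high of 2.1 CPM. The groups overlapped, differing by 0.17 on the log2 scale (95% interval -0.23 to 0.57, edgeR, adjusted p = 0.768). Cyp27b1 (ENSMUSG00000006724, chromosome 10, 127048250 to 127053006, plus strand), the 1-alpha-hydroxylase, had 9, 8, 8 and 19 counts in the Littermates and between 8 and 38 in Experimental libraries, and did not pass the filter on low counts. As CPM these were 0.704, 0.586, 0.569 and 1.48 in Littermates and 0.56 to 0.907, with a median of 0.676, in Experimental skin. Littermate 4 alone was high, and the remaining Littermates lay inside the Experimental range.

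S100g (ENSMUSG00000040808, chromosome X, 162961992 to 162964599, minus strand), calbindin-D9k, is a calcium-binding protein that vitamin D induces in the gut. It had the largest fold of the set and the widest spread. Its Littermate values were 2.03, 2.86, 0.213 and 1.09 CPM, on 26, 39, 3 and 14 counts. Its Experimental values ran from 1.75 over a median of 3.46 to 10.2 CPM. Of the 6 Experimental libraries 5 exceeded all Littermates, Experimental 4 was highest, and Experimental 6 lay within the Littermate range. The estimated fold was 2.83 with a 95% interval of 1.09 to 7.39, or 1.5 on the log2 scale with an SE of 0.62 (edgeR, unadjusted p = 0.0362, adjusted p = 0.385). Its coefficient of variation between libraries was 84.2%, and its biological coefficient of variation in the fit 62.2% against a common value of 12.8%.

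Trpv6 (ENSMUSG00000029868, chromosome 6, 41620621 to 41636405, minus strand) encodes an epithelial calcium channel induced by vitamin D. Its Littermate values of 22, 19.9, 21.5 and 24.9 CPM lay inside the Experimental range, which ran from 17.4 over a median of 25.7 to 27.2 CPM. Experimental 1 and 6 were the lowest and the other 4 exceeded all Littermates. The difference on the log2 scale was 0.11 (95% interval -0.16 to 0.38, edgeR, adjusted p = 0.787).

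Cd14 (ENSMUSG00000051439, chromosome 18, 36725074 to 36726736, minus strand), a co-receptor for bacterial lipopolysaccharide on myeloid cells that vitamin D can raise, had 27.7, 18.2, 33.3 and 31.1 CPM in Littermates. Its Experimental values ran from 11.9 over a median of 16.8 to 36.4 CPM. Experimental 1 to 4 lay below all Littermates and Experimental 6 above them. Its log2 fold change, -0.49, had a 95% interval of -1.16 to 0.18 (edgeR, adjusted p = 0.573). Without Experimental 6 it was -0.76 (edgeR, adjusted p = 0.12).

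Spp1 (ENSMUSG00000029304, chromosome 5, 104435118 to 104441050, plus strand), osteopontin, is a secreted phosphoprotein of bone and of activated macrophages whose gene carries a classical vitamin D element upstream. Its Littermate values were 50.6, 36.6, 45.9 and 50.4 CPM, and its Experimental values ran from 16.4 over a median of 29.4 to 47.1 CPM. All Experimental libraries other than Experimental 6 lay below all Littermates. The means were 45.9 ± 6.54 CPM (SD, n = 4) and 29.5 ± 10.7 CPM (SD, n = 6). As a fold this was 0.641 with a 95% interval of 0.44 to 0.934, or -0.64 on the log2 scale with an SE of 0.24 (edgeR, unadjusted p = 0.0249, adjusted p = 0.34). Without Experimental 6 this log2 value was -0.82 (edgeR, adjusted p = 0.0887).

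**Figure D3:**
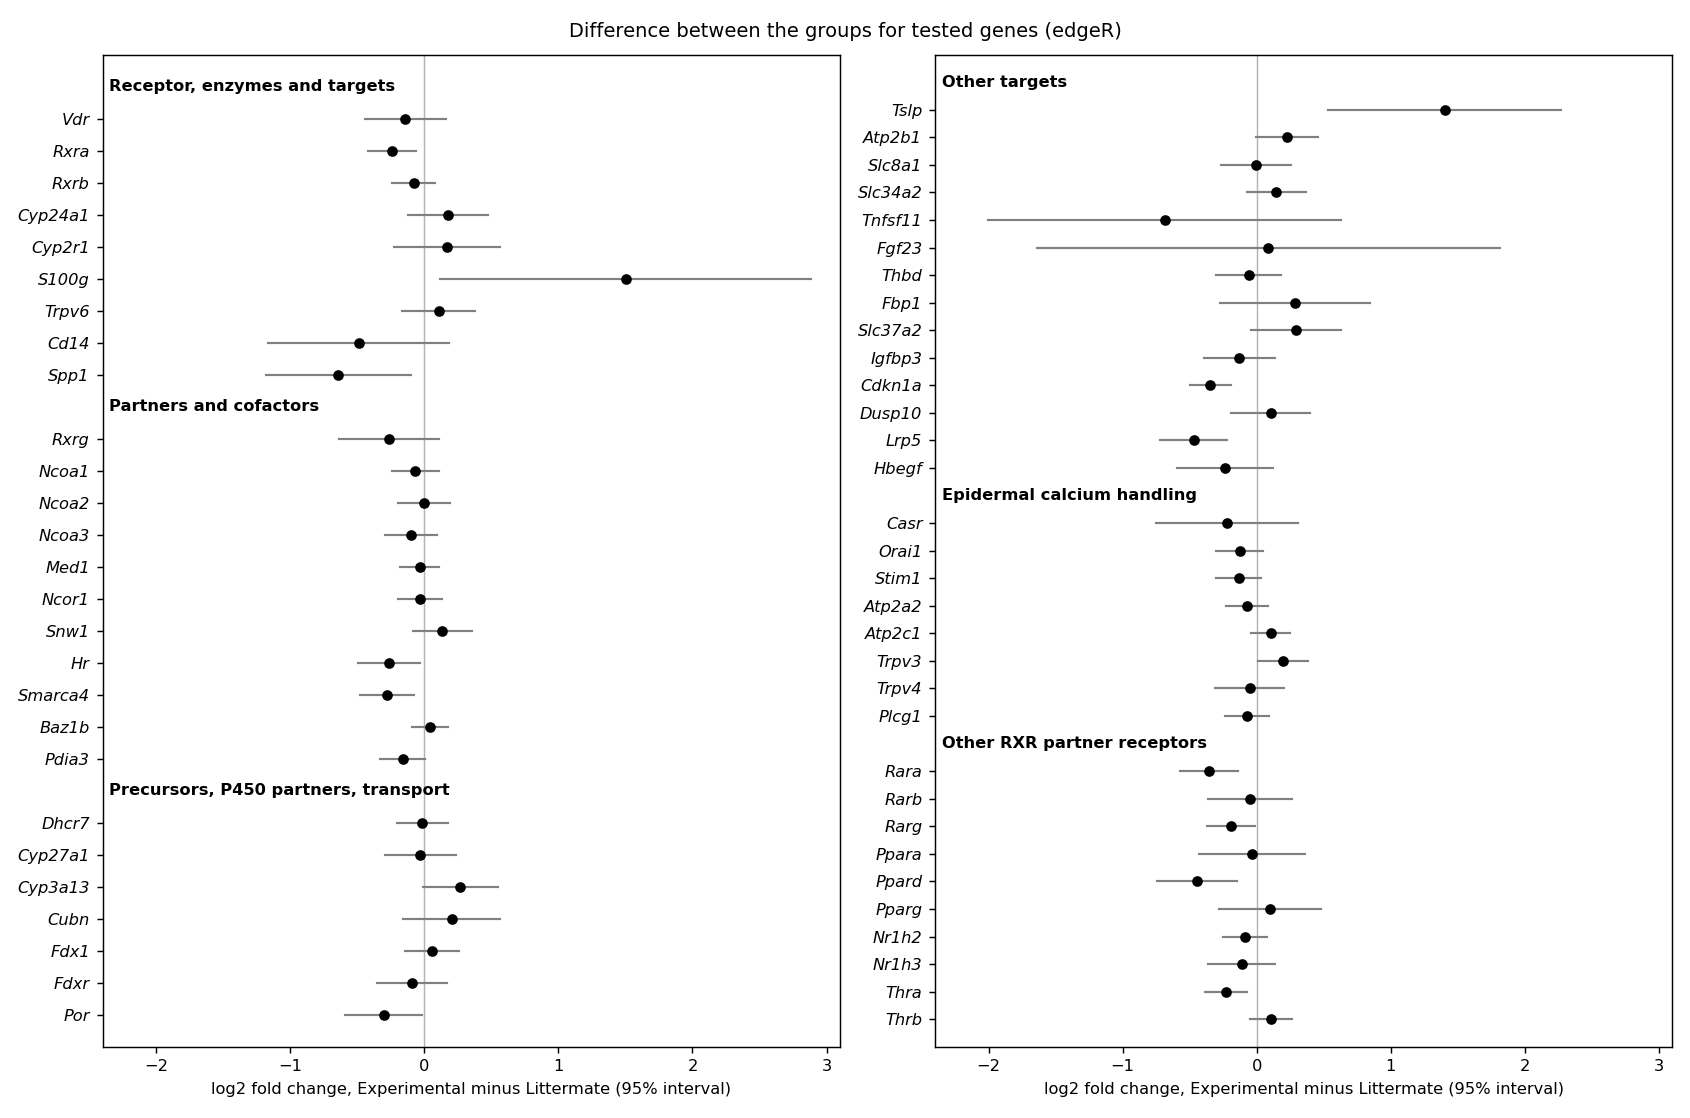
Log2 fold change, Experimental minus Littermate, with its 95% interval for each tested member and for tested genes of 5 further lists (edgeR). S100g and Tslp lie farthest to the right, at 1.5 and 1.4, and the intervals of most genes cross 0.

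Across libraries, 36 pairs among the 9 members with a mean of at least 1 CPM were compared on log2 CPM. Of these 1 pair passed, Cd14 with Spp1, with a Pearson r of 0.891 (permutation test of 100000 resamples, two-sided, p = 0.00059, adjusted p = 0.0212 over the 36 pairs) and a Spearman rho of 0.867 (permutation test, adjusted p = 0.0868). Without Experimental 3 and 6, the libraries farthest from the median of Cd14, r was 0.878. With both genes centred on their group means r was 0.86 and no longer passed (permutation test within groups, adjusted p = 0.0884). Within the 6 Experimental libraries alone r was 0.879 (exact permutation test, p = 0.0208). Leaving out 1 library at a time gave r from 0.869 to 0.93, with an adjusted p that rose above 0.05 without Littermate 1, 3 or 4 or Experimental 5 or 6 (exact permutation test, adjusted p from 0.0527 to 0.0804).

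**Figure D4:**
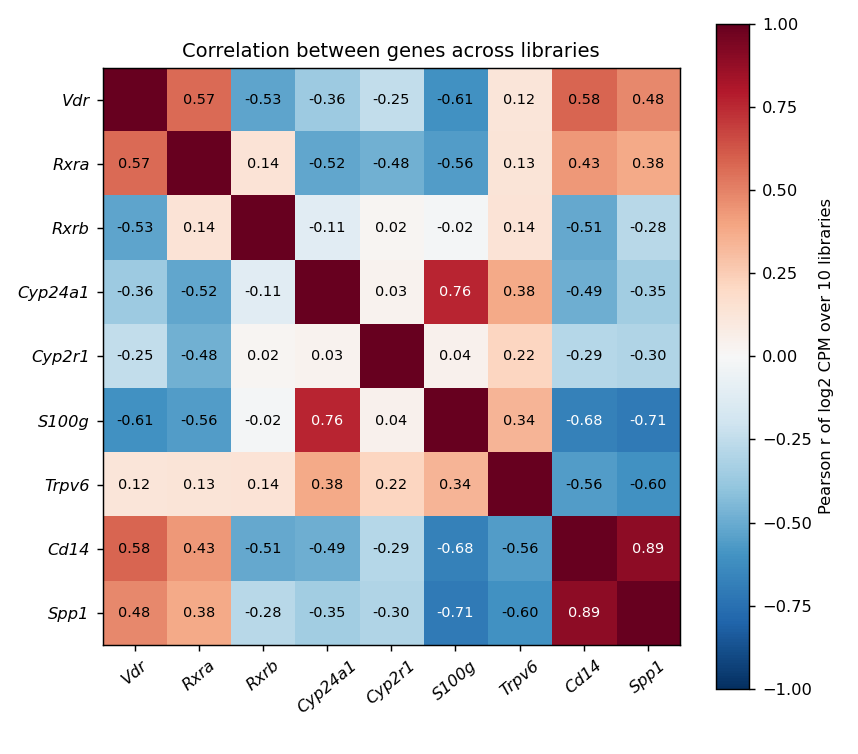
Pearson r of log2 CPM over 10 libraries for each pair of the 9 members with a mean of at least 1 CPM, red for positive and blue for negative. Cd14 and Spp1 have the highest r, 0.89, followed by Cyp24a1 and S100g at 0.76.

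No other pair passed. Cyp24a1 and S100g had an r of 0.76 and a rho of 0.818 (permutation test, p = 0.0135, adjusted p = 0.208 for r), and r was 0.448 without Experimental 5 and Littermate 3, so the relation rests in part on those libraries. S100g ran opposite to Spp1 (r = -0.706, rho = -0.77) and to Cd14 (r = -0.679, rho = -0.745), neither of which passed (permutation test, adjusted p = 0.208 for both r). Centred on group means, these r were -0.489 for Spp1 and -0.537 for Cd14 (permutation test within groups, adjusted p = 0.388 for both). Trpv6 had an r of 0.379 (rho = 0.212) with Cyp24a1 and of -0.602 (rho = -0.588) with Spp1 (permutation test, adjusted p = 0.541 and 0.342 for r). Vdr had an r of -0.361 (rho = -0.552) with Cyp24a1 and of 0.57 (rho = 0.588) with Rxra (permutation test, adjusted p = 0.541 and 0.342 for r). Within the Experimental libraries alone, r of Vdr with Rxra was -0.202 (exact permutation test, p = 0.692). With S100g, Vdr had an r of -0.605 (rho = -0.758, permutation test, adjusted p = 0.342 for r). Rxrb and Cd14 had an r of -0.509 (rho = -0.612, permutation test, adjusted p = 0.361 for r), and of -0.885 once centred on group means (permutation test within groups, adjusted p = 0.0817).

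The 5 genes most like Spp1, again of 14221, were Ifnar2 (r = 0.963), Tnfrsf1b (0.961), Csf3r (0.957), Themis2 (0.953) and Entpd3 (0.952). Csf3r is the receptor for the neutrophil growth factor G-CSF, Tnfrsf1b a TNF receptor and Ifnar2 a chain of the interferon receptor. Csf3r had 31.8, 19.6, 29.6 and 28.2 CPM in Littermates and ran from 8.41 over a median of 14.4 to 43.1 CPM in Experimental skin, with Experimental 6 highest, as for Cd14. The summed macrophage and monocyte markers (10 genes) spanned 1816 to 2149 CPM in Littermate and 1463 to 2352 CPM in Experimental skin. Summed neutrophil markers (6 genes) spanned 297 to 577 and 201 to 496 CPM, and summed mast cell markers (5 genes) 401 to 473 and 348 to 455 CPM. No gene of these lists was at 0 throughout.

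Over 16 relations of Cd14 and Spp1 with 8 marker sums, chosen after seeing the data, 1 passed. Spp1 went with the mast cell sum at an r of 0.896 and a rho of 0.903 (permutation test, p = 0.00045, adjusted p = 0.0072 for r). Without Experimental 4 and Littermate 4 r was 0.83, and centred on group means it was 0.826 (permutation test within groups, adjusted p = 0.128). With the macrophage sum Spp1 had an r of 0.779 and a rho of 0.745 (permutation test, adjusted p = 0.063) and Cd14 an r of 0.607 and a rho of 0.612 (permutation test, adjusted p = 0.253). With the neutrophil sum Spp1 had an r of 0.561 and a rho of 0.491 (permutation test, adjusted p = 0.286 for r). Cd14 had an r of 0.437 and a rho of 0.6 with that sum (permutation test, adjusted p = 0.461 for r). With cartilage and bone markers, of which Matn1, Bglap2 and Sp7 were under the filter, the r were 0.155 for Spp1 and 0.148 for Cd14. The part of immune cell number in the values of Cd14 and Spp1 was not tested.

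Tslp, the epithelial cytokine through which MC903 starts this inflammation and itself a vitamin D target, was set against the 9 members, a choice made after seeing the data. It had 77.2, 111, 37.5 and 31.9 CPM in Littermates and ran from 119 over a median of 164 to 239 CPM in Experimental skin. Its 6 Experimental values lay above all Littermates, as for 0.761% of all tested genes. With S100g it had an r of 0.857 and a rho of 0.915, and with Rxra an r of -0.886 and a rho of -0.842 (permutation test, adjusted p = 0.00347 over 9 relations for both r). Without the 2 libraries farthest from the median of the member, r was 0.915 for S100g and -0.719 for Rxra. Within the Experimental libraries alone r was 0.717 for S100g and -0.517 for Rxra (exact permutation test, p = 0.107 and 0.267). Centred on group means, neither passed, at r of 0.746 and -0.761 (permutation test within groups, adjusted p = 0.079 and 0.0715). Cyp24a1 had an r of 0.654 with Tslp, which did not pass (permutation test, adjusted p = 0.0862), and a rho of 0.758, which did (permutation test, adjusted p = 0.0426). Within the Experimental libraries alone its r was 0.919 (exact permutation test, p = 0.00556). Without Experimental 5 and Littermate 3 r was 0.291, and centred on group means it was 0.672 (permutation test within groups, adjusted p = 0.0715).

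**Figure D5:**
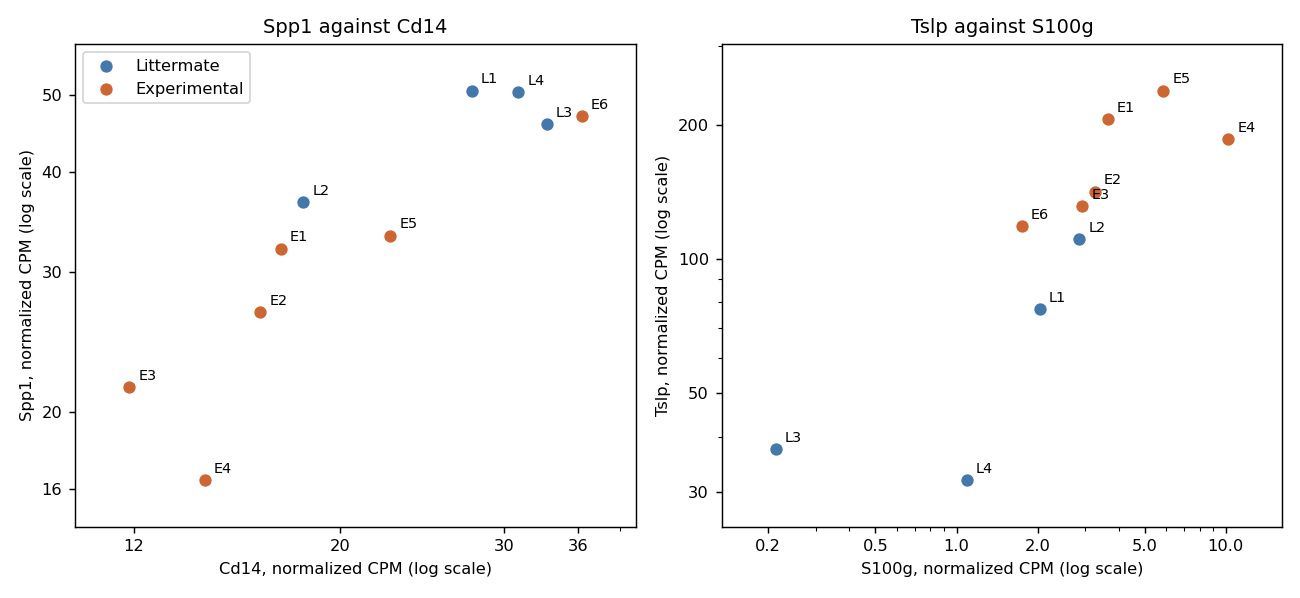
Left, Spp1 against Cd14 and right, Tslp against S100g, in normalized CPM on log axes with 1 point per library, blue for Littermate and orange for Experimental. On the left E6 lies among L1, L3 and L4 at the top, and on the right L3, with 3 counts of S100g, lies at the far left.

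Further genes of the pathway were read from 5 lists, in none of which a gene passed. Of 12 receptor partners and cofactors, all tested, 0 passed (edgeR) and 3 had an unadjusted p under 0.05, all lower, with a median log2 fold change of -0.08. Over all tested genes the shares at that threshold were 8.1% lower and 3.65% higher. The chromatin remodeller Smarca4 was at -0.28 (edgeR, adjusted p = 0.268), while the groups overlapped through Littermate 2. With GC correction Smarca4 was at -0.19, and without Littermate 2 it was at -0.38 (edgeR, adjusted p = 0.0162). Without Littermate 4 it was at -0.18 (edgeR, adjusted p = 0.702).

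Of 9 genes of precursors, P450 redox partners and transport, 7 were tested and 0 passed (edgeR), with 1 unadjusted p under 0.05 and a median of -0.02. Por, which feeds electrons to microsomal P450 enzymes, was at -0.30 and Cyp3a13 at 0.27 (edgeR, adjusted p = 0.40 and 0.453). Gc, the plasma carrier of vitamin D, and Lrp2, its kidney uptake receptor, did not pass the filter on low counts. Of 18 other target genes 14 were tested and 0 passed (edgeR), with 7 positive and 7 negative values, 3 unadjusted p under 0.05 and a median of 0.04. Of these 3 genes 1 was higher and 2 lower, against 3.65% and 8.1% of all tested genes. Tslp had the largest value, 1.4 (edgeR, adjusted p = 0.229). The cell cycle inhibitor Cdkn1a was at 86.1, 78.3, 84.7 and 92.1 CPM in Littermates. Its Experimental values, from 59.3 over a median of 68.4 to 71.6 CPM, lay fully below them, as for 1.35% of all tested genes. Its log2 difference was -0.35 (edgeR, adjusted p = 0.0834). DESeq2 called Cdkn1a (adjusted p = 0.00443) and Tslp (adjusted p = 0.0245). The Wnt co-receptor Lrp5 was at -0.47 (edgeR, adjusted p = 0.127), with 5 of 6 Experimental libraries below all Littermates, and DESeq2 called it at -0.47 (adjusted p = 0.0274). Without Littermate 2, Cdkn1a was at -0.39 and Lrp5 at -0.58 (edgeR, adjusted p = 0.019 and 0.0143). Without Littermate 4 they were at -0.30 and -0.36 (edgeR, adjusted p = 0.339 and 0.506).

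Epidermal calcium handling held 8 tested genes, of which 0 passed (edgeR) and 1 had an unadjusted p under 0.05, with a median of -0.07. The heat-gated channel Trpv3 was at 0.20 and the calcium sensor Stim1 at -0.14 (edgeR, adjusted p = 0.39 and 0.533). Of 10 other receptors that pair with RXR, 0 passed (edgeR) and 4 had an unadjusted p under 0.05, all lower, with a median of -0.10. Over all tested genes 8.1% were lower and 3.65% higher at that threshold. Rara, the retinoic acid receptor alpha, was at -0.36 and Ppard at -0.45 (edgeR, adjusted p = 0.184 and 0.241). With GC correction they were at -0.22 and -0.41, and without Littermate 2 at -0.43 and -0.59 (edgeR, adjusted p = 0.0482 and 0.0159). Median GC contents of the 5 lists lay between 49.1% and 54.5%.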

How the data were processed

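Ribosomal RNA-depleted total RNA of whole ear skin was sequenced as single reads, per the labels' protocols, with no strand marking described. The tools named are STAR 2.0.4b, featureCounts 1.4.5 and Subread, with the build mm10, per the submitters' processing notes, which give no annotation release. Per the file headers, the authors deposited a read count per gene, a CPM and an RPKM. The deposited CPM is the count over the library total, and the deposited RPKM is that CPM per kilobase of gene length. Only the counts entered the tests.

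Symbols matched 97.3% of gene identifiers. Counts of all 10 libraries were tested with edgeR 4.0.16 (TMM, filterByExpr, robust quasi-likelihood, group as only term, two-sided, Benjamini-Hochberg over 16830 genes, threshold 0.05). The interval is the log2 fold change ± its SE times the t quantile for 95%. Printed CPM and RPKM values are TMM-scaled. Correlations used log2 CPM with a prior count of 2. The tests were tried on simulated counts. Alternatives were other size factors and filters, DESeq2 1.42.0, limma 3.58.1 voom with quality weights, the replicate number as a block, and each library left out. GC correction, joint removal of Littermate 2 and Experimental 6, and the relations with Tslp and marker sums were added after seeing the data. Members, lists and tests were chosen with earlier results of these data known. Named genes were all members, Tslp, up to 2 genes of lowest p in each list (marker genes are given by list only, apart from Csf3r and Ivl), and the 5 most like Cyp24a1 and Spp1. Of the marker lists, those of keratinocytes, macrophages, neutrophils, mast cells, cartilage and bone, skeletal muscle, fibroblasts and melanocytes, 0 genes passed (edgeR), with median log2 fold changes of 0.02, -0.11, -0.32, -0.20, -0.18, -0.25, -0.00413 and -0.33. Replicates are separate mice as far as the labels go. The values of 1 gene covered by the rule for named genes are not reported here.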

Additional observations from a re-analysis of the deposited data

Results flagged for a closer look

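Cyp27b1, the activating 1-alpha-hydroxylase, stood apart in Littermate 4, at 1.48 normalized CPM (19 counts) against 0.569 to 0.704 CPM in the other Littermates, a gap wider than the 95% limit of Dixon's test for 4 samples. Among 22 groups of values tested in this way (11 genes in 2 groups) it was the 1 that stood out, and chance gives about 1 in 20.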

How the results depend on the processing

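The count of genes that differed between the groups was 3 with edgeR as run, and 78 with no filter on low counts, 233 with DESeq2, 57 with voom and quality weights and 67 with the replicate block. With 1 library left out it ran from 3 to 343, being 343 without Littermate 2, 28 without Experimental 6 and 8 without Littermate 3. Without both Littermate 2 and Experimental 6, libraries picked for this effect, it was 563, and Vdr (-0.33), Cd14 (-0.91) and Spp1 (-0.91) passed (edgeR, adjusted p = 0.0444, 0.0162 and 0.0433). Vdr, Cd14 and Spp1 passed in none of the other 18 alternatives, and the 6 other tested members in none of 19. The cause was not tested. Of the 3 calls in the main test 33.3% were higher, against 5.26% to 28.6% in the alternatives named above with their counts. Other alternatives also gave 33.3%, among them total counts only and the fits without Littermate 1 or Littermate 4. The log2 fold change of Rxrb turned to 0.00370 without both libraries and to 0.0785 with GC correction. That of Ivl, a keratinocyte marker, ran from -0.0104 without Littermate 2 to 0.313 without Littermate 3. Cyp27b1 entered 8 of the alternatives, at -0.32 to 0.25, positive only without Littermate 4. The log2 fold change of S100g ran from 1.13 to 2.16, of Spp1 from -0.94 to -0.52, of Cd14 from -0.91 to -0.36 and of Cyp24a1 from 0.08 to 0.29. Same-numbered libraries did not deviate together (r from -0.0209 to 0.091 over 4 pairs), and only Littermate 3 correlated best with its own number. Low r over 4 pairs cannot exclude that the numbers pair the mice. Under the block no member passed, with Spp1 at -0.94 (edgeR, adjusted p = 0.0844). Of Tslp, Cdkn1a and Lrp5, Lrp5 passed under the block, at -0.42 (edgeR, adjusted p = 0.0461). Csf3r also passed under the block, at -1.23 (edgeR, adjusted p = 0.0428), against -0.62 in the main test (edgeR, adjusted p = 0.626). The count of correlated pairs was 1, fell to 0 with values centred on group means, and ran from 0 to 1 with 1 library left out. Depth limits Cyp27b1 and S100g, where 3 counts were worth 0.0715 to 0.26 CPM.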
